A study of Mus musculus with 22 samples.

Results

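The genes described here are 4 keratins of simple epithelia (Krt8, Krt18, Krt19 and Krt23) and 4 markers of ductular injury or of fetal liver (Spp1, Epcam, Sox9 and Afp), 8 of the 18194 genes that the array annotation names through a probe set with 1 symbol. They were chosen by symbol, with earlier results of the same arrays known, and the rule asks in addition which of their probe sets lie above the median signal of the array. Of the 8 genes, 7 had at least 1 probe set and 16 probe sets in all. No probe set carries Spp1 as its single symbol in the annotation used, so this gene, which encodes osteopontin, was not analysed here.

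Keratins form the intermediate filaments of epithelial cells, and each filament pairs a type I with a type II chain. Hepatocytes normally make the pair Krt8 (type II) and Krt18 (type I), whereas Krt19 belongs to bile duct cells and Krt23 is a type I keratin known from stressed and injured liver. Sox9, Epcam and osteopontin mark bile duct cells and the duct-like cells that appear in some injured livers, and Afp, the fetal plasma protein alpha-fetoprotein, is nearly silent in healthy adult hepatocytes.

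Liver RNA came from C57BL6 males of 8 weeks that received diclofenac sodium, a nonsteroidal anti-inflammatory drug, at 30 mg/kg by daily intraperitoneal injection, or saline. Livers were taken on day 1, 3 or 14, and each went on 1 Affymetrix mouse genome array, with 3 diclofenac and 3 saline livers on each of days 1 and 3 and 5 of each on day 14. Values are array signals, a unit of brightness per probe set that the authors brought to a common level on each array, and they are comparable between livers for 1 probe set but not between probe sets. The arrays were of whole liver, so fewer cells of a type and less RNA per cell cannot be told apart. Each day was compared with the saline livers of its own day, because day and array run cannot be told apart.

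Array medians lay between 75.2 and 89.9. All 13 hepatocyte markers examined, albumin among them, were above the array median in all 22 livers, and 7 of 24 cholangiocyte markers were above it in all 22 while 4 were above it in none. A single liver, replicate 3 of the diclofenac group at day 14, stood apart. It held the highest signal of the 10 livers of that day in 27.9% of the 11884 genes tested and the lowest in 29.7%, against 5.3% to 11.5% and 5.1% to 10.3% in the other livers. The log2 differences and list medians of day 14 are therefore given with and without it.

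Of the 16 probe sets, 4 lay above the array median in all 22 livers, namely the 3 for Krt8 and the 1 for Krt18. Another 9 lay above it in some livers and 3 in none (1 of Sox9 and 2 of Afp). For the probe set of highest mean, which stands for its gene below, the number of livers above the median was 7 for Krt19, 13 for Krt23, 17 for Epcam, 19 for Sox9 and 13 for Afp. For Krt23 these were 10 of the saline and 3 of the diclofenac livers. Values close to the limit show how thin it is. Epcam at 81.6 in diclofenac day 1 replicate 2 lay 1.001 times its array's median, and Afp at 76.6 in saline day 1 replicate 2 lay 0.977 times its array's median. With the 60th percentile of the array in place of its median, the 4 Krt8 and Krt18 probe sets remained above the limit in all livers, while the dimmer genes lost livers: Krt19 was above it in 2, Krt23 in 9, Epcam in 10, Sox9 in 9 and Afp in 2.

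Differences between diclofenac and saline livers were tested in limma over all genes, with Benjamini-Hochberg adjustment and a threshold of 0.05. At day 1 none of the 7 genes tested passed and none had an unadjusted p under 0.05, against 0% of 12884 genes called and 1674 of them with an unadjusted p under 0.05. At day 3 none of 7 passed and 3 (Krt18, Krt23 and Epcam) had an unadjusted p under 0.05, where 0.202% of genes were called and 1397 of 12884 had an unadjusted p under 0.05. At day 14 none of 6 tested passed and 1 (Krt23) had an unadjusted p under 0.05, where 0% of 11884 genes were called and 1287 had an unadjusted p under 0.05. Krt19 was not tested at day 14, since it lay above the median in 1 of the 10 livers. On the mean of the day 1 and day 3 differences none of 7 passed and 2 (Krt18 and Krt23) had an unadjusted p under 0.05, where 0.675% of genes were called and 2215 of 12884 had an unadjusted p under 0.05. The test and fold rule that the study's methods name gave 0, 0 and 1 of these genes (Krt23) at days 1, 3 and 14, where it called 1.46%, 2.49% and 2.39% of all genes, and none of the members after Benjamini-Hochberg adjustment.

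**Figure D1:**
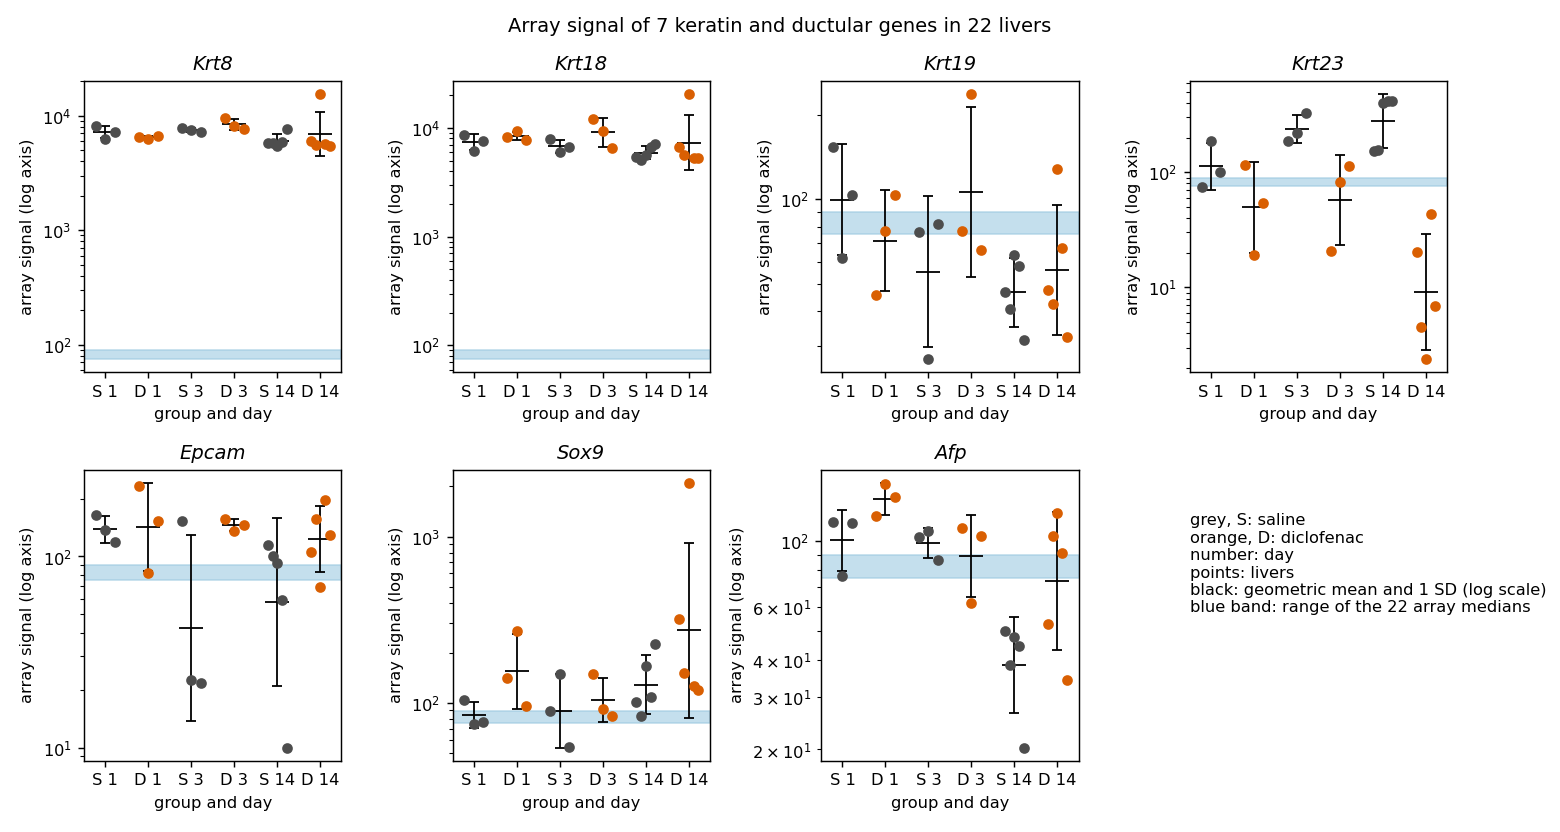
Array signal (log axis) of the 7 genes in each of the 22 livers, by group and day, with the geometric mean and 1 SD on the log scale in black and the range of the array medians as a blue band. Krt8 and Krt18 lie far above the band in every liver, and Krt23 lies below it in all 5 diclofenac livers of day 14 and above it in all 5 saline livers.

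Krt23 gave the largest difference of the 7 genes. It lies on chromosome 11 (GRCm38.p6, chr11:99477973-99493120). At day 14 its signals were 154.2, 155.3, 402.6, 419.1 and 411.9 in saline livers and 20.2, 4.5, 2.4, 43.4 and 6.9 in diclofenac livers. Every diclofenac liver lay below every saline liver, and the diclofenac livers all lay below their array's median.

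The means were 308.6 ± 140.6 (SD, n = 5) with saline and 15.5 ± 17.1 (SD, n = 5) with diclofenac. The log2 difference was -4.92 (standard error 0.75, 95% interval -6.56 to -3.27), the fourth smallest p of 11884 genes, with an adjusted p of 0.0675 in limma, above the threshold. The two-sided exact permutation test over livers gave p = 0.00794, as low as 5 against 5 can go. Of all genes tested at day 14, 1.60% had diclofenac livers entirely below and 2.18% entirely above the saline livers, and of the 7 genes Krt23 did the former and none the latter. Krt23 entered the test only through the saline livers, which is where it was high, and signals under the array median are poorly fixed. With every signal below the array median set to that median, the log2 difference was -1.74 and Krt23 was at least 3.34-fold lower with diclofenac, an alternative chosen after seeing the data.

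Without diclofenac replicate 3, which held the lowest Krt23 signal of all livers, the log2 difference at day 14 was -4.44 and the adjusted p 0.0112 in limma, with 123 of 11742 genes (1.05%) called in place of 0. The call was also made when all 22 arrays were fitted in one model (adjusted p 0.00215) or arrays were weighted by their quality (adjusted p 0.0167), settings that called 0.997% and 0.917% of all genes at day 14, and with arrays centred on their median or that median added before log2, which called 0.126% and 0.0168%. Leaving out any other liver of day 14 gave adjusted p-values of 0.0652 to 0.23. Control probe sets against the 3′ and the 5′ end of the same transcripts gauge RNA breakdown, and their log2 ratio was 0.691 to 0.805 in diclofenac livers and 0.545 to 0.711 in saline livers of day 14. Its part in the result was not tested.

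Krt23 lay lower with diclofenac at the earlier days too, in livers that share none with day 14. At day 3 its signals were 188.2, 217.3 and 327.3 in saline livers and 20.8, 82.2 and 112.8 in diclofenac livers. The groups did not overlap (exact permutation test, p = 0.1, as low as 3 against 3 can go), where 9.21% of all genes lay entirely lower and 10.8% entirely higher with diclofenac, and 1 and 0 of the 7 genes did. The log2 difference at day 3 was -2.04 (95% interval -3.55 to -0.53, adjusted p 0.3 in limma). At day 1 the signals were 74.6, 188.2 and 101.2 with saline and 115.8, 19.2 and 54.4 with diclofenac, groups that overlap, with a log2 difference of -1.19 (95% interval -2.69 to 0.32, adjusted p 0.491), which was -0.39 with signals below the array median set to it and -0.50 without diclofenac day 1 replicate 2. With the same floor the difference at day 3 was -1.37. On the mean of both early days the log2 difference was -1.61 (95% interval -2.68 to -0.54, adjusted p 0.146).

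Whether the size of the difference changed with time was tested by itself. The day 14 difference of Krt23 minus its mean early difference was -3.31 on the log2 scale (95% interval -5.22 to -1.39, unadjusted p = 0.00177, adjusted p 0.537 in limma), where 0.0225% of 13340 genes were called and none of the 7 members. Since all diclofenac signals of day 14 lay below the array median, its size is poorly fixed: it was -0.86 (unadjusted p = 0.039, adjusted p 0.749 in limma) with signals below the median set to it, and -2.82 (adjusted p 0.267) without diclofenac day 14 replicate 3. The day 3 minus day 1 difference of Krt23 was -0.85 (95% interval -2.99 to 1.28, adjusted p 0.901), where 0% of genes and none of the 7 members were called and 694 genes had an unadjusted p under 0.05.

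**Figure D2:**
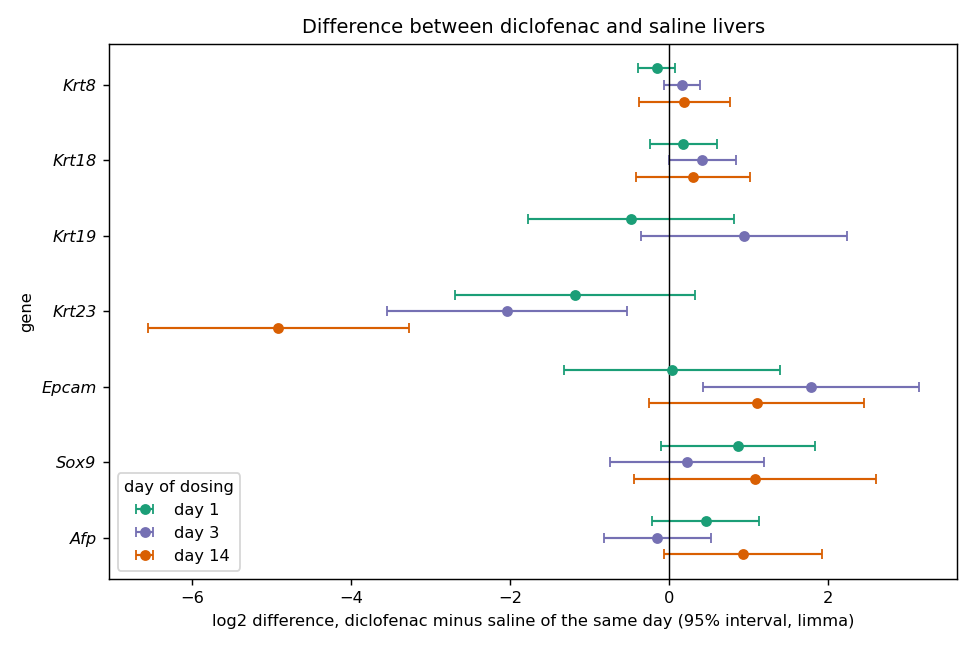
Log2 difference between diclofenac and saline livers of the same day for each gene, with 95% intervals from limma (Krt19 was not tested at day 14). The interval of Krt23 lies entirely below 0 at days 3 and 14, and those of Epcam and, barely, Krt18 (from 0.01) entirely above 0 at day 3, before adjustment over all genes.

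Krt8 and Krt18, the filament pair of hepatocytes, were bright in every liver and differed little between the groups. Krt8 lies at chr15:101996711-102004342 and Krt18 at chr15:102028216-102032026 (GRCm38.p6), with 23873 bases between them. Their promoters are shown because they are neighbours whose signals moved together across livers, and that of Krt23 because of its difference at day 14. Each window runs 5′ to 3′ on the gene's strand from 250 bases before the annotated start to 50 after it, as RefSeq gives it on GRCm38.p6, with capitals for matches on either strand to 3 short motifs. These are the TATA box, spelled TATAAA, the element of nuclear receptors that reads AGGTCA, and TTGCNNAA as the element of the C/EBP factors.
Krt8 promoter (chr15:102004293-102004592, minus strand): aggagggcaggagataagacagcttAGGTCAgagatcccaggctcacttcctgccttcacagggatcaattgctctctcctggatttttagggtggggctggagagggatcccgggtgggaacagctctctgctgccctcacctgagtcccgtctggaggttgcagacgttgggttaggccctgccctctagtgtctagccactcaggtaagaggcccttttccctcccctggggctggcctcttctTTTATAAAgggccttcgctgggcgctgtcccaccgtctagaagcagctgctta
Krt18 promoter (chr15:102027966-102028265, plus strand): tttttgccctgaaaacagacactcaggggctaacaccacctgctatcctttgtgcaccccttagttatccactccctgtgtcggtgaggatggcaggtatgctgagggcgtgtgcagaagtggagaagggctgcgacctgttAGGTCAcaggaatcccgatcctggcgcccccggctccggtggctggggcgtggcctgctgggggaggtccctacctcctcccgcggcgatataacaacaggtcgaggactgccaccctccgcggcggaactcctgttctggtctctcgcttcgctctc
Krt23 promoter (chr11:99493071-99493370, minus strand): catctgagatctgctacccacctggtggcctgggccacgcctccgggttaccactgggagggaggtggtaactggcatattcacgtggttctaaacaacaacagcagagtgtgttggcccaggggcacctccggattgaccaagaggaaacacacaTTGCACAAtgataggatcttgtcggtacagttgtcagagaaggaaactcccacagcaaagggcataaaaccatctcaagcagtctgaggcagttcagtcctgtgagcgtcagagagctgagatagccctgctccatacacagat
Both Krt8 and Krt18 hold 1 match to AGGTCA, its first base at position -225 and -108 from the annotated start, and 16.3% of all 32851 promoter windows hold one. Krt8 has TATAAA on both strands in overlapping letters, a motif of 13.6% of windows, and Krt23 has 1 match to TTGCNNAA, a motif of 10.8% of windows. These matches describe the letters only.

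At day 1 the signal of Krt8 was 8139.6, 6325.6 and 7260.3 in saline livers and 6520.7, 6254.3 and 6637.4 in diclofenac livers. At day 3 it was 7790.9, 7583.1 and 7165.6 with saline and 9599.2, 8069.9 and 7717.0 with diclofenac. The groups overlapped on both days, with log2 differences of -0.16 (95% interval -0.38 to 0.07) and 0.17 (95% interval -0.06 to 0.39) and adjusted p-values of 0.545 and 0.602 in limma. These intervals are the narrowest among the 7 genes on those days.

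At day 14 Krt8 was 5729.9, 5734.6, 5462.5, 5900.9 and 7672.8 in saline livers and 6014.6, 5515.0, 15413.0, 5723.2 and 5445.5 in diclofenac livers. The diclofenac liver at 15413.0 is replicate 3. It lay 2.55-fold above the geometric mean of the saline livers, while the other 4 diclofenac livers together lay 0.937-fold of it. In the fit Krt8 differed by 0.19 on the log2 scale (95% interval -0.38 to 0.77, adjusted p 0.802 in limma) and -0.09 without that replicate. The other 2 Krt8 probe sets gave 2.39 and 2.38-fold for the same liver and 0.987 and 0.966-fold for the rest.

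Krt18, unlike Krt8, had means above those of saline on both early days, without passing the test. At day 1 its signals were 8692.5, 6160.7 and 7644.7 with saline and 8274.5, 9330.8 and 7759.1 with diclofenac, and at day 3 they were 7826.7, 6011.2 and 6624.7 with saline and 12182.2, 9393.4 and 6566.4 with diclofenac. Replicates 1 and 2 of the diclofenac group at day 3 lay above all saline livers of that day, and replicate 3 lay within them. The log2 differences were 0.18 (95% interval -0.24 to 0.60, adjusted p 0.713 in limma) and 0.42 (95% interval 0.01 to 0.84, adjusted p 0.454), and 0.30 on the mean of both days (adjusted p 0.279). The day 3 difference was 0.21 without diclofenac day 3 replicate 1 and 0.66 without replicate 3.

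At day 14 Krt18 was 5384.9, 5113.8, 5683.6, 6646.9 and 7095.7 in saline livers and 6613.2, 5592.0, 20390.9, 5290.9 and 5277.9 in diclofenac livers. Replicate 3 was again the liver apart, at 3.43-fold over the geometric mean of the saline livers. The other 4 diclofenac livers lay within the saline range at 0.955-fold of that mean. In the fit Krt18 differed by 0.30 on the log2 scale (95% interval -0.42 to 1.02, adjusted p 0.747 in limma) and -0.07 without replicate 3.

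Across the 22 livers the signals of the filament pair moved together. After the mean of each day was subtracted, log2 Krt8 and log2 Krt18 had a Pearson r of 0.911 (Spearman rho 0.662), and among the 11692 genes searched Krt18 was the gene most like Krt8. Much of this rests on few livers, since r was 0.70 without diclofenac day 14 replicate 3 and 0.583 without the 2 livers farthest from the median of Krt8. The points share their array, its scaling and the split into diclofenac and saline livers. By the same measure Krt18 was most like Il17ra, a receptor subunit of interleukin 17, at r = 0.927 and 0.635 without the 2 farthest livers.

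**Figure D3:**
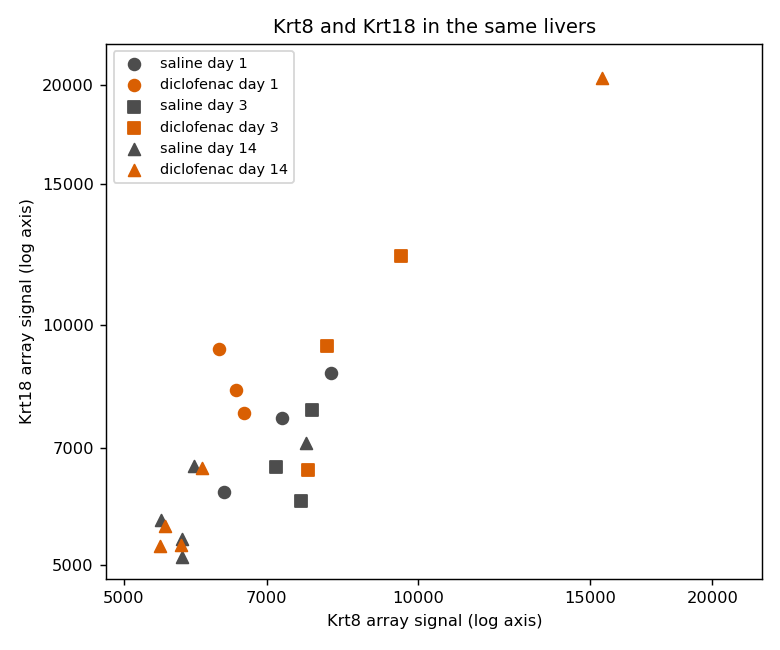
Krt18 against Krt8 array signal in the 22 livers (both axes log), by treatment (grey saline, orange diclofenac) and day (circle 1, square 3, triangle 14). Diclofenac day 14 replicate 3 lies alone at the upper right, at 15413.0 for Krt8 and 20390.9 for Krt18.

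Krt19, the keratin of bile duct cells, was dim in whole liver RNA. It lies at chr11:100140810-100145926. Its signals at day 1 were 153.0, 61.9 and 103.8 with saline and 45.8, 76.9 and 103.4 with diclofenac, and at day 3 they were 76.4, 27.1 and 81.5 with saline and 77.2, 236.2 and 65.8 with diclofenac. The groups overlapped on both days, and diclofenac day 3 replicate 2 was the brightest of all 22 livers. The log2 differences were -0.48 (95% interval -1.78 to 0.82, adjusted p 0.759 in limma) and 0.94 (95% interval -0.35 to 2.24, adjusted p 0.602). The latter was 0.37 without diclofenac day 3 replicate 2, 0.43 without saline day 3 replicate 2 and 0.53 with signals below the array median set to it.

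At day 14 Krt19 was 46.8, 40.8, 63.5, 57.8 and 31.6 with saline and 47.5, 42.4, 128.3, 67.1 and 32.3 with diclofenac. Replicate 3 was the only liver of that day above its array's median. The groups overlapped (exact permutation test, p = 0.516). That replicate lay 2.75-fold above the geometric mean of the saline livers, against 0.98-fold for the other 4 diclofenac livers.

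Sox9 encodes a transcription factor of bile duct cells and lies at chr11:112782210-112787757. At day 14 its signals were 101.5, 83.6, 167.4, 109.1 and 227.4 with saline and 317.8, 150.5, 2098.6, 126.1 and 118.7 with diclofenac. Replicate 3 lay 16.3-fold above the geometric mean of the saline livers. Replicate 1 was the only other diclofenac liver above all saline livers, and the remaining 3 lay within their range. Sox9 differed by 1.08 on the log2 scale (95% interval -0.44 to 2.61, adjusted p 0.588 in limma), and 0.35 without replicate 3.

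A second Sox9 probe set gave 977.0 in the same liver, 65.0 to 139.8 in the other diclofenac livers and 6.3 to 109.3 with saline. That liver lay 17.9-fold above the geometric mean of the saline livers, which the low signal of 6.3 draws below their arithmetic mean of 77.1. The remaining Sox9 probe set was below the array median in all livers and read 17.9 in that liver, within the saline range of 1.8 to 25.9.

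At day 1 Sox9 was 104.1, 75.0 and 77.2 with saline and 141.4, 270.5 and 96.1 with diclofenac. Replicates 1 and 2 of diclofenac lay above all saline livers, and the log2 difference was 0.87 (95% interval -0.10 to 1.84, adjusted p 0.436 in limma), which was 0.47 without replicate 2. At day 3 it was 88.8, 148.8 and 54.0 with saline and 148.3, 92.0 and 83.4 with diclofenac, with a log2 difference of 0.22 (95% interval -0.74 to 1.19, adjusted p 0.902). The gene most like Sox9 across livers was Hmox1, heme oxygenase 1, an enzyme of the oxidative stress response, with r = 0.933, and 0.745 without diclofenac day 14 replicate 3 and diclofenac day 1 replicate 2.

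Epcam encodes an adhesion molecule of epithelial cells and lies at chr17:87635979-87651127. At day 3 its brighter probe set read 153.8, 22.6 and 21.8 with saline and 157.4, 135.2 and 146.4 with diclofenac. The diclofenac livers were alike while 2 of 3 saline livers were low, and the groups overlapped. The log2 difference was 1.79 (95% interval 0.43 to 3.15, adjusted p 0.315 in limma), 0.58 with signals below the array median set to it, and 2.72 without saline day 3 replicate 1. The saline livers of day 3 themselves had a lower mean than those of day 1 (log2 difference -1.72, 95% interval -3.08 to -0.35, adjusted p 0.346; -0.51 with the same floor). In that comparison of saline livers without the floor 0.217% of genes and none of the 7 members were called. Epcam was the 1 member with an unadjusted p under 0.05 there. The other Epcam probe set read 36.1, 56.9 and 53.1 with saline and 26.0, 20.1 and 41.1 with diclofenac on day 3, the opposite order, at signals below the array median.

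At day 14 the brighter Epcam probe set read 114.6, 101.1, 92.7, 59.1 and 10 with saline and 105.1, 156.7, 69.4, 198.0 and 129.0 with diclofenac. Of the diclofenac livers, 3 lay above all saline livers and replicate 3 was the lowest of the 5. The log2 difference was 1.11 (95% interval -0.25 to 2.46, adjusted p 0.535 in limma; exact permutation test over livers, p = 0.103) and 1.31 without that replicate. It was 0.47 without saline replicate 5, the liver at 10, and 0.47 with signals below the array median set to it. At day 1 the signals were 164.8, 137.1 and 119.0 with saline and 233.7, 81.6 and 153.0 with diclofenac, with a log2 difference of 0.04 (95% interval -1.32 to 1.40, adjusted p 0.987). The suffix of its identifier marks this brighter probe set as one whose probes can also match other transcripts.

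Afp lies at chr5:90490714-90508907 and was read by 5 probe sets, of which the brightest is given unless stated. At day 1 its signals were 115.7, 76.6 and 114.5 with saline and 121.7, 155.3 and 140.6 with diclofenac. All 3 diclofenac livers lay above all saline livers (exact permutation test, p = 0.1, the smallest possible), where 8.23% of all genes lay entirely higher and 8.10% entirely lower, and 1 and 0 of the 7 genes did. The log2 difference was 0.46 (95% interval -0.21 to 1.14, adjusted p 0.543 in limma). At day 3 it was 102.8, 108.0 and 86.4 with saline and 110.3, 61.8 and 103.9 with diclofenac, with a log2 difference of -0.15 (95% interval -0.82 to 0.53, adjusted p 0.908).

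At day 14 Afp was 50.1, 38.5, 47.8, 44.6 and 20.3 with saline and 52.9, 103.6, 124.0, 91.5 and 34.1 with diclofenac. All but 1 of the diclofenac livers lay above every saline liver, and the highest was replicate 3. The second brightest Afp probe set read 5.8 to 40.0 with saline and 9.3 to 60.4 with diclofenac, all below the array median. Afp differed by 0.93 on the log2 scale (95% interval -0.06 to 1.92, adjusted p 0.487 in limma; exact permutation test over livers, p = 0.0794) and 0.74 without replicate 3, when it no longer entered the test. Afp entered the test of day 14 only through 3 diclofenac livers, the group where it was high. All saline livers of day 14 lay below their array's median, and with signals below the median set to it the difference shrank to 0.16.

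**Figure D4:**
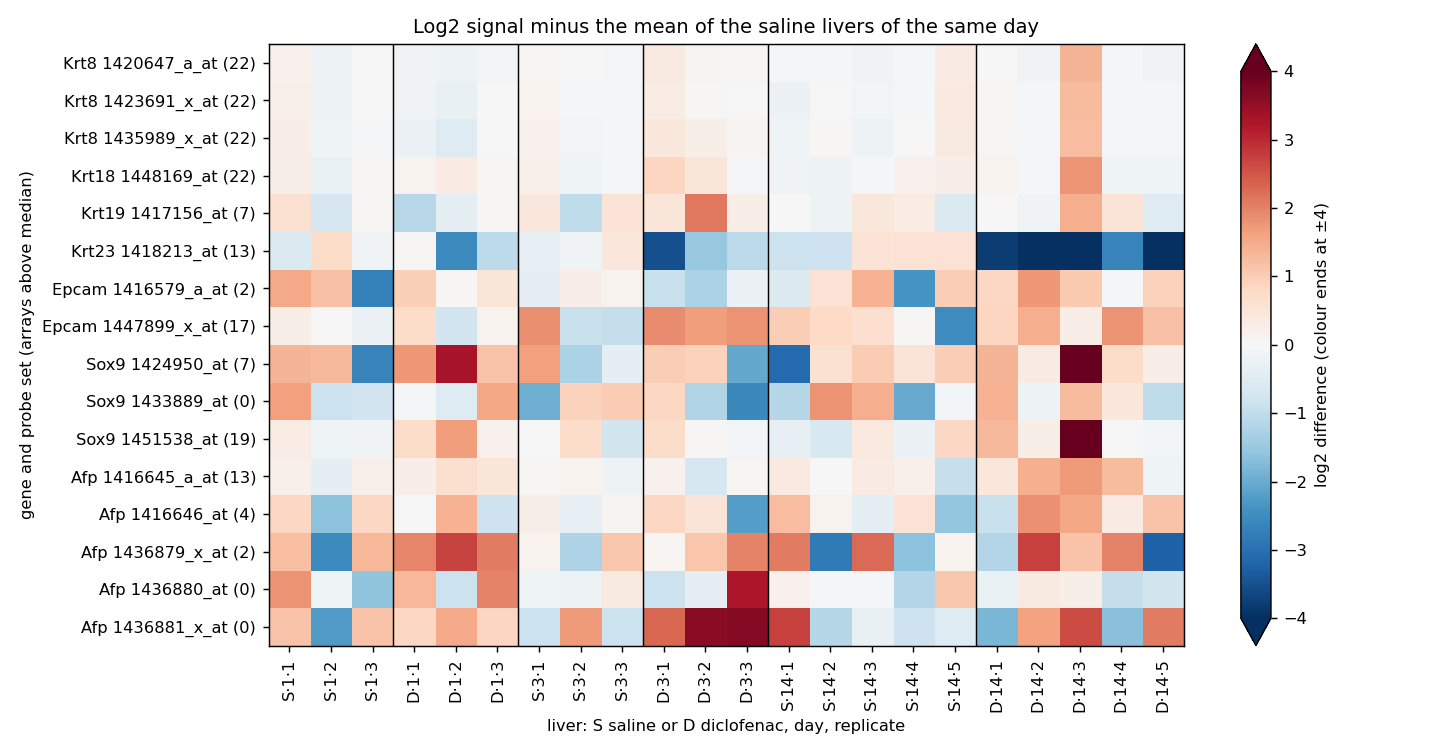
Log2 signal of each of the 16 probe sets in each liver minus the mean of the saline livers of the same day (red higher, blue lower), with the number of arrays above the median in brackets. The Krt23 row is blue in all 5 diclofenac livers of day 14, and in the column of diclofenac day 14 replicate 3 all other rows lie above the saline mean, by 0.25 (an Afp probe set) to 4.16 (a Sox9 probe set).

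The order of the 6 groups by mean log2 signal differed between the genes. Krt8, Krt18, Krt19 and Epcam were highest in the diclofenac group of day 3, Sox9 in that of day 14 and Afp in that of day 1, whereas for Krt23 the 3 saline groups came first and the diclofenac group of day 14 last, with means of 8.12 and 3.20. Neighbouring groups in these orders overlapped throughout, except diclofenac day 1 and saline day 1 of Afp. Across days the order can also follow the array run, as said above.

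In replicate 3 of day 14, which was high for Krt8, Krt18, Krt19, Sox9 and Afp and lowest for Krt23, markers of other cell types were high as well. It held the highest signal of the day in 7 of 8 neutrophil markers, 11 of 15 macrophage and Kupffer cell markers and 8 of 13 stellate cell markers tested, against 27.9% of all genes. The summed signal of the 10 neutrophil markers was 819 to 24727 in diclofenac livers and 371 to 654 in saline livers of that day, and that of the 17 macrophage markers 28091 to 63268 and 22753 to 30590. Of the 13 cholangiocyte markers tested 4 were highest there, Sox9 among them. The summed signal of all 24 was 6975 to 8792 with diclofenac and 6574 to 7878 with saline. That list holds the members Krt19, Epcam and Sox9, and Sox9 alone gave 2098.6 to the sum of replicate 3. The count and the sum are therefore not independent of the Sox9 signal. The part of these cells in the keratin and Sox9 signals was not tested.

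The other genes of each pathway were read from gene lists, and none of the listed genes passed at day 1 or day 14. Without diclofenac day 14 replicate 3, 2 of 157 listed genes passed at day 14, where 1.05% of all 11742 genes passed. They were Krt23 and S100a8, a calcium-binding protein of neutrophils (log2 difference 3.88, adjusted p 0.0325 in limma). Among 12 genes that link keratin filaments to junctions, 1 passed at day 3, Ppl, the cytolinker periplakin. Its signals at day 3 were 107.2 to 205.2 with saline and 357.8 to 636.1 with diclofenac, groups that do not overlap, and it rose by 1.52 on the log2 scale (standard error 0.26, adjusted p 0.0408 in limma) and by 1.03 on the mean of days 1 and 3 (adjusted p 0.0262). The call at day 3 was lost (adjusted p 0.0617 to 0.233) when any 1 saline liver of days 1 or 3, or diclofenac day 3 replicate 1 or 2, was left out. With all livers kept it was lost with no filter (adjusted p 0.0584) and with probe sets averaged (0.0507). It was also lost with all 22 arrays in one model (0.0581) and with signals floored at the array median (0.0516). The methods' test gave 0.561 after Benjamini-Hochberg adjustment, a step that the methods do not name. The call on the mean was lost (adjusted p 0.0569 to 0.0797) without any 1 saline liver of day 1 or the same diclofenac livers. Plec, the cytolinker plectin, differed by 0.40 at day 1 (log2, adjusted p 0.296 in limma) and by 0.41 at day 3 (adjusted p 0.254), and Eppk1, epiplakin, by 0.51 at day 3 (adjusted p 0.222). Others fell, with Dsg2 at -0.35 at day 1 (adjusted p 0.324) and Dsc2 at -0.46 at day 3 (adjusted p 0.305). Cdh1 differed by -0.54 at day 14 (adjusted p 0.423, and -0.35 without replicate 3). Of the list 8, 5 and 7 genes lay above 0 at days 1, 3 and 14, and 4, 7 and 4 below it. At day 14 the Eppk1 signal was 2754.5 in diclofenac replicate 3, 564.8 to 838.0 in the other diclofenac livers and 457.5 to 790.9 with saline, and the log2 difference of 0.66 (adjusted p 0.527) was 0.28 without that replicate. The median log2 difference of the list was 0.18, -0.14 and 0.04 at days 1, 3 and 14 (0.07 at day 14 without replicate 3), beside 0.00, 0.01 and -0.01 over all genes.

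The array holds 38 other keratins. None passed among the 13 in the test of days 1 and 3 or the 8 in that of day 14. Their medians were -0.41, 0.00 and -0.12 at days 1, 3 and 14 (-0.03 at day 14 without replicate 3). At day 1 Krt10 differed by -0.41, Krt84 by 1.80 and Krt42 by -0.73 (log2, adjusted p 0.338, 0.351 and 0.363 in limma). Krt84 lay above the array median in 7 of 22 livers. Of the 13 keratins 5 lay above 0 and 8 below it at day 1. None of the 10 genes of Mallory-Denk bodies, the keratin deposits of stressed hepatocytes, and of keratin stress passed either, with medians of 0.07, -0.03 and 0.10 (-0.05 without replicate 3). Among them Hspb1, a small heat shock protein, differed by -1.06 at day 1 (log2, adjusted p 0.35 in limma) and by -0.88 at day 14 (adjusted p 0.456, and -0.46 without replicate 3). Hspa1a went the other way, by 1.60 at day 1 (adjusted p 0.35) and by 1.03 at day 14 (adjusted p 0.588, and 1.54 without replicate 3). It lay above the array median in 12 of 22 livers. Of the 10 genes 7 lay above 0 at day 1 and 6 at day 14.

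No cholangiocyte marker passed on any day, out of 17 tested at days 1 and 3 and 13 at day 14, with medians of 0.09, 0.22 and 0.14 (0.15 without replicate 3). The list includes the members Krt19, Epcam and Sox9. At day 14 Cd24a, a surface glycoprotein of duct and progenitor cells, had a log2 difference of 1.06 and Pkhd1, fibrocystin of the duct cell's cilium, 0.50 (adjusted p 0.253 and 0.354 in limma), which were 0.91 and 0.55 without replicate 3. Aqp1 differed by -0.31 (adjusted p 0.541), and by -0.45 without replicate 3. Of the 13 markers 8 lay above 0 and 5 below it on that day. At day 1, 10 lay above 0 and 7 below it, and Onecut1 differed by -1.07 (adjusted p 0.338). None of 17 genes of the Notch and Yap pathways of biliary fate passed, with medians of 0.02, 0.20 and -0.11 (-0.14 without replicate 3). Wwtr1, the Yap partner Taz, differed by 0.29, 0.54 and 0.28 on the log2 scale (adjusted p 0.45, 0.23 and 0.417 in limma), the last 0.22 without replicate 3. Other genes of the list fell, with Hey1 at -1.52 at day 1 (adjusted p 0.339) and Amotl2 at -0.57 at day 3 (adjusted p 0.291). Heyl differed by -1.04 at day 14 (adjusted p 0.334, and -0.74 without replicate 3). Of the 17 genes 10, 12 and 5 lay above 0 at days 1, 3 and 14.

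None of the fetal liver genes passed, out of 8 tested at days 1 and 3 and 9 at day 14, with medians of 0.32, -0.17 and -0.06, nor did any of 11 regulators of Afp, with medians of -0.17, -0.15 and 0.07 (-0.07 and 0.08 for the lists at day 14 without replicate 3). Of these Foxa1, a pioneer factor of liver genes, had a log2 difference of -0.86 at day 1 and Foxa3 one of 0.80 at day 3 (adjusted p 0.306 and 0.169 in limma). The receptors and proteases of osteopontin, with 15 genes in the test of days 1 and 3 and 14 in that of day 14, had medians of 0.09, 0.13 and 0.20 (0.10 without replicate 3) and none passed. Cd44, a receptor of osteopontin and hyaluronan, differed by 0.70 at day 1 (log2, adjusted p 0.314 in limma). At day 14 its signal was 1839.6 in diclofenac replicate 3 and 328.1 to 528.7 in the other diclofenac livers, which lay within the saline range of 215.9 to 615.1, and the difference of 0.71 (adjusted p 0.564) was 0.30 without that replicate. Mmp9, a gelatinase that cleaves osteopontin, differed by 2.82 at day 3 (adjusted p 0.226 in limma). It lay above the array median in 10 of 22 livers, so the size is poorly fixed. Itga8 differed by -0.76 at day 1 (adjusted p 0.315), and Itgb3 by -2.07 at day 3 (adjusted p 0.444). Of the 15 genes 10 lay above 0 at day 1 and 8 at day 3.

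Among the marker lists of other cells, Prtn3 and S100a9 of neutrophils rose on the mean of days 1 and 3 by 4.32 and 3.13 on the log2 scale (adjusted p 0.0235 and 0.037 in limma), and Reln, reelin of stellate cells, fell by 0.65 (adjusted p 0.044). The calls of S100a9 and Reln were lost (adjusted p up to 0.102 and 0.128) without any 1 saline liver or diclofenac day 3 replicate 1 or 2, and that of Prtn3 (up to 0.0787) without saline day 1 replicate 2, saline day 3 replicate 3 or the same diclofenac livers. With all livers kept, each of the 3 calls was lost under some settings, with a replicate block (adjusted p 0.0746 for S100a9, 0.0656 for Prtn3 and 0.0973 for Reln), with all 22 arrays in one model (0.134 for S100a9 and 0.119 for Reln), with the array median added before log2 (0.0557) or signals floored at it (0.0515) for S100a9, and with centring (0.0511) for Reln. With all probe sets of a gene averaged, Reln differed by -0.19 (adjusted p 0.834). With all livers and none of these alternatives, no other neutrophil, stellate cell, macrophage, hepatocyte, mesothelial, pancreas or proliferation marker passed on any day or on the mean of days 1 and 3. The median log2 differences at days 1, 3 and 14 were 1.58, 0.93 and 1.53 for neutrophil, 0.42, 0.37 and 0.71 for macrophage, -0.57, -0.04 and -0.32 for stellate cell, -0.01, 0.13 and 0.08 for hepatocyte, -0.10, 0.18 and 0.07 for mesothelial, 0.27, -0.19 and -0.13 for pancreas and 0.45, 0.79 and 0.39 for proliferation markers. Without replicate 3 those of day 14 were 1.10, 0.50, -0.53, 0.08, 0.07, 0.11 and 0.13 in the same order.

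The genes whose log2 signals ran most like Krt23 across the 22 livers, after the mean of each day was subtracted, were Ogdh, a subunit of the 2-oxoglutarate dehydrogenase of the citric acid cycle, and Ndufa5 and Ndufv1, subunits of respiratory complex I, with r = 0.92, 0.909 and 0.902 among 11692 genes. Without the 2 livers farthest from the median, both of them diclofenac livers of day 14, r was 0.882, 0.876 and 0.861. The points share their arrays and the treatment split, and no p is given. Krt19 was most like Trmt6 (r = 0.795), Epcam most like Cdc7 (r = 0.802) and Afp most like Masp1, a protease of the lectin pathway of complement made in liver (r = 0.868, and 0.835 without the 2 farthest livers).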

How the data were processed

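Total RNA of 22 mouse livers was hybridised to Affymetrix mouse genome arrays, and the study's methods name MAS 5.0 and a global median for normalization. The deposited values are linear signal intensity values, 1 per probe set, whose mean after trimming 2% from either end is 500.0 on every array, so that changes of the total are not seen. Their medians differ between arrays, from 75.2 to 89.9, so the values analysed here do not carry a common median. They come with no detection calls. Of 45101 probe sets, 34958 have 1 gene symbol, 932 several and 9211 none.

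Signals were taken to log2, each gene was represented by its probe set of highest mean, and genes above the array's median in at least 3 arrays of a model were tested. Models were fitted in limma 3.58.1 (R 4.3.3; lmFit, and eBayes with a variance trend) on the 12 arrays of days 1 and 3, the 10 of day 14, and all 22 for the difference between them, two-sided, with Benjamini-Hochberg adjustment over all genes tested. The procedure was tested on simulated data. Single genes were also compared by two-sided exact permutation tests over livers (Python 3.11.15, pandas 2.3.3, numpy 2.4.6, scipy 1.17.1). The number of arrays limits the precision. The labels state 5 mice per group, of which 3 or 5 arrays per group were analysed here, and p-values measure the spread between these arrays.

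Members and lists were chosen with earlier results of these data known. Named were all members with all their probe sets, up to 4 genes of each list per comparison (those past the test first, then by unadjusted p, of which a part is printed), and the genes most like each member (of 3 each, a part is printed). Gene positions and promoters are from RefSeq (GRCm38.p6), which gave promoters for 6 of the 8 members. Alternatives were other filters, scalings, pseudocounts, probe set rules, models and weights, a replicate block, the methods' test and leaving out each array. Replicate numbers did not pair the livers.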

Additional observations from a re-analysis of the deposited data

Results flagged for a closer look

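In the 14 groups of 5 livers examined (7 genes, both groups of day 14), 4 values lay far from the others of their group. Each was judged by the gap to the nearest liver divided by the range of the group on the log2 scale, with a limit of 0.71. Chance marks about 1 in 20 independent groups, and these are not independent, since the 7 genes share the same livers. Diclofenac day 14 replicate 3 stood out for Krt8, at a signal of 15413.0 and a ratio of 0.904, and for Krt18, at 20390.9 and a ratio of 0.833. Saline day 14 replicate 5 stood out for Krt8, where it was high at 7672.8 with a ratio of 0.773, and for Epcam, where it was low at 10 with a ratio of 0.729.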

How the results depend on the processing

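Of 602 log2 differences of the members under alternative settings, 579 kept their direction and their side of the threshold. No member passed in the main fit, so a change of side could only be a gain of a call, and 5 values gained one. The number of members called was 0 throughout for days 1 and 3, their mean and the differences between days. At day 14 it was 1 in place of 0, always Krt23, when arrays were centred on their median (log2 difference -4.90, adjusted p 0.0399), when the array median was added before log2 (-1.93, 0.0469), with all 22 arrays in one model (-4.92, 0.00215), with array weights (-4.39, 0.0167), and by the methods' test at an unadjusted p, and 0 to 1 when each liver was left out. Over all settings other than leaving out a liver, the log2 difference of Krt23 at day 14 ran from -4.92 to -1.74 and its adjusted p from 0.00215 to 0.361; the cause of these differences was not tested. The direction turned for 18 values, none past the threshold in any setting: with array weights Krt8 and Krt18 at day 14 were -0.036 and -0.018, and Krt8 on the mean of days 1 and 3 was -0.02 with centring and -0.003 with all probe sets averaged. Leaving out 1 liver gave -0.32 to 0.44 for Epcam at day 1, -0.14 to 0.59 for Sox9 and -0.30 to 0.12 for Afp at day 3, -0.094 to 0.281 for Krt8 and -0.067 to 0.421 for Krt18 at day 14, and -0.042 to 0.049 for Krt8 and -0.055 to 0.405 for Krt19 on the mean of days 1 and 3. Replicate numbers do not pair the livers (residuals of 1 of the 11 pairs that share a number correlated above 0.1), and with a replicate block Krt23 at day 14 kept -4.92 with an adjusted p of 0.0957, 0 members were called on any day, and 6, 1 and 24 genes were called at day 3, at day 14 and on the mean of days 1 and 3, against 26, 0 and 87. Over all genes, calls at day 3 ran from 0 to 178 when 1 liver was left out, and calls at day 14 from 0 to 123, the latter without diclofenac replicate 3. Signals below the array median limit Krt19, Epcam, Afp and, with diclofenac, Krt23.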
